A study of Mus musculus with 12 samples.

Results

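The 40 genes described here encode the actin cytoskeleton and the focal adhesions that anchor it: actin isoforms, the proteins that bind, cross-link, move and turn over actin filaments, the adhesion proteins that tie filaments to integrins, and the serum response factor SRF with its coactivators. They were chosen by name, with no measured value in the rule, though with earlier results of these data known. The deposited wild-type table holds all 40 among its 13331 genes, and the knockout table holds 39 of them among 13027 genes, the calponin gene Cnn1 being listed for the wild type alone. In 8 groups by role they were 3 actin isoforms, 5 calponins and transgelins, 4 tropomyosins, 6 myosin chains, 6 linkers and cross-linkers, 10 adhesion adaptors and kinases, 3 actin turnover proteins, and SRF with its 2 coactivators. RNA came from C2C12, an established mouse myoblast line, either as the wild-type control or with Ddx27 knocked out. Ddx27 encodes a nucleolar RNA helicase that takes part in ribosomal RNA maturation. For each genotype there was total RNA and the RNA of isolated polysomes, which are mRNAs loaded with ribosomes. No clone, drug or differentiation step is named in the labels.

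Cells build and dissolve actin filaments continuously, and myosin II pulls on them. At focal adhesions, talin, vinculin, filamin and alpha-actinin connect the filaments to integrins in the membrane, while paxillin, focal adhesion kinase and the integrin-linked kinase complex assemble signals there. Free actin monomers hold the coactivators Mkl1 and Mkl2 in the cytoplasm, so that polymerisation lets them enter the nucleus and switch on SRF target genes, many of which encode actin and its binding proteins. In myoblasts this machinery drives spreading, migration and the alignment that precedes fusion.

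The 11 libraries analysed here comprised 3 polysomal and 3 total ones of the wild type, and 3 polysomal and 2 total ones of the knockout. 1 knockout total sample of the labels was not analysed here, and knockout libraries are numbered by table column. The libraries held 13683674 to 27347878 reads in listed genes. Levels are normalised read counts as deposited, integer reads scaled by a factor for the library, and on that scale a value of 0 would allow 0.0989 to 0.257 (3 reads, counting error only). Separate cultures are not stated for samples of one group, and p-values therefore measure only the spread between these samples, which may be technical. Ddx27 itself was lower in every knockout library (31.3 to 52.6) than in every wild-type library (139 to 215). Of 6 myoblast markers, Pax7 was listed for the wild type alone, and Myod1, at 69.7 to 177 in wild-type libraries, was at most 1.13 in the knockout, so the knockout libraries nearly lacked a defining myoblast gene. In the comparisons of genotypes, loss of Ddx27 cannot be told apart from other differences between the wild-type and knockout cells. None of 4 endothelial markers was listed, and of 4 leukocyte markers only Cd68 was, at 0.913 to 4.94. Reads of ribosomal RNA type, mapped to 4 gene models, made up 0.0586 to 0.146% of total libraries but 5.85, 14.4 and 0.665% of wild-type polysomal replicates 1 to 3 and 22.9, 32.4 and 0.381% of the 3 knockout polysomal libraries. In bulk RNA, fewer cells of a kind and less RNA per cell cannot be told apart.

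SRF binds a short palindromic motif, the CArG box. Promoters of 35 of the 40 genes were found in the RefSeq promoter table of build GRCm38.p6, and 7 of these 35 genes had a CArG box in the 250 bases before a transcription start, against 1.62% of the 27025 genes in the table. The pattern searched for matches on both strands alike, though a single box need not read the same on both. A match is a description of sequence only. Only exact matches were counted: CC, a run of A or T, then GG. A gene outside the 7 may thus carry a looser or more distant box, and genes without a listed promoter were not searched. The 7 were Actg1, Cnn2, Fermt2, Myl6, Myl9, Srf and Vcl. The stretches below, each 5′ to 3′ on the gene's strand with the CArG box in capitals, are shown because these genes carry the same element, while their polysomal values, given later, include the lowest and the highest of the 7. That of Vcl lay at chr14:20929151-20929200 on the plus strand and that of Actg1 at chr11:120348556-120348605 on the minus strand, both upstream of the annotated gene. Those of Srf, at chr17:46556195-46556264, and Myl6, at chr10:128493030-128493079, both on the minus strand, lay inside the annotated span of the gene.
Vcl: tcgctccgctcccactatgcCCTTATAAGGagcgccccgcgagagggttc
Actg1: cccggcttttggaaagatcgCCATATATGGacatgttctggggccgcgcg
Srf: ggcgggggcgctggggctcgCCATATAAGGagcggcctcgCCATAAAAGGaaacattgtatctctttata
Myl6: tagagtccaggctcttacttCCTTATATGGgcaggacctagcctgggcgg

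In wild-type myoblasts, polysomal RNA was compared with total RNA to ask which transcripts polysomes held more or less of. The transcripts of all 6 linkers and cross-linkers were much scarcer in polysomal than in total RNA, at log2 fold changes of -2.60 to -1.37, and so were those of both non-muscle myosin heavy chains. Transgelin (Tagln) and calponin 1 (Cnn1), both known from smooth muscle, went the other way and rose, while no tropomyosin, light chain or actin turnover gene passed the test. Of the 40 genes, 2 rose and 14 fell at a Benjamini-Hochberg adjusted p under 0.05 in limma, where 8.89% of the 12380 genes tested rose and 13.8% fell. The median over the 40 was -0.34, against -0.02 over all genes tested. At an unadjusted p under 0.05, 3 were higher and 16 lower (17.7% and 21.6% of all genes). In edgeR 2 rose and 14 fell (10.2% and 13.0% of all genes), and in DESeq2 4 rose and 15 fell (17.4% and 17.9%). In 17 of the 40 all 3 polysomal libraries were below all 3 total libraries (27.7% of all genes), and in 4 all were above (23.2%).

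Filamin A (Flna, ENSMUSG00000031328, chrX:74223461-74249854 in GRCm38.p6), which cross-links filaments into networks and ties them to integrins, read 4140.5, 4101 and 4111 in the total libraries and 529.5, 724 and 816 in the polysomal ones. Every polysomal library was thus far below every total library, and the 3 total libraries were nearly level. Flna fell by 2.60 ± 0.21 (log2 units, SE, limma adjusted p = 0.00111). Its means were 4118 ± 20.5 in total and 689.8 ± 146 in polysomal RNA (SD, n = 3 each). Talin 1 (Tln1, chr4:43531513-43562583), which binds the integrin tail and starts the link to actin, read 1135, 1155 and 1235 in total and 189, 197 and 214 in polysomal RNA. It fell by 2.55 ± 0.15 (adjusted p = 0.000808), again with no overlap between the groups.

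Vinculin (Vcl, chr14:20929383-21033676), which reinforces the bond between talin and actin, went from 892, 906 and 898 to 229, 127 and 249.7, and fell by 2.21 ± 0.27 (adjusted p = 0.00302). Its lowest value was in polysomal replicate 2. Filamin C (Flnc), the muscle filamin, read 773, 783 and 808 in total and 169, 175 and 193 in polysomal RNA and fell by 2.13 ± 0.15 (adjusted p = 0.000988). The 2 non-muscle alpha-actinins, which bundle filaments, fell less. Actn4 went from 897, 905 and 1011 to 259, 232 and 364 (fell by 1.74 ± 0.21, adjusted p = 0.00302), and Actn1 from 819, 825 and 818 to 282, 251 and 446 (fell by 1.37 ± 0.24, adjusted p = 0.0088). In polysomal replicates 1, 2 and 3 the median of the 6 genes against mean total RNA was -2.09, -2.34 and -1.93.

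Among the 6 myosin chains, both heavy chains fell and none of the 4 light chains passed the test. Non-muscle myosin IIA (Myh9, chr15:77760585-77842175) read 3057, 3018 and 2752 in total and 933, 1501 and 990.0 in polysomal RNA, and fell by 1.40 ± 0.23 (adjusted p = 0.00761). Non-muscle myosin IIB (Myh10) went from 219, 222 and 213 to 80.1, 71.9 and 72.8, and fell by 1.53 ± 0.15 (adjusted p = 0.00168). The essential light chain Myl6 read 102, 103 and 70.6 in total and 162, 221 and 67.2 in polysomal RNA, so the groups overlapped (0.57 ± 0.42, adjusted p = 0.343). The regulatory light chain Myl9 stood at 90.2, 94.5 and 81.8 against 58.1, 157 and 58.7 (-0.12 ± 0.38, adjusted p = 0.827), with polysomal replicate 2 alone above all total libraries. Myl12a and Myl12b, whose reads may be shared between 2 near-identical genes, stood at 0.31 and -0.01, again with their highest values in polysomal replicate 2.

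Of the 3 actin isoforms, Actg1 alone passed the test. Beta-actin (Actb), the main cytoplasmic actin, read 6851, 6743 and 7666 in total and 4948, 6484 and 7369 in polysomal RNA, overlapping groups with a difference of -0.19 ± 0.23 (adjusted p = 0.543). Smooth muscle alpha-actin (Acta2) likewise overlapped, at 2904, 2903 and 2985 against 2559, 4295 and 3128 (0.15 ± 0.23, adjusted p = 0.653). Cytoplasmic gamma-actin (Actg1) was listed at only 4.81, 5.93 and 4.07 in total and 1.99, 1.61 and 1.15 in polysomal RNA and fell by 1.20 ± 0.23 (adjusted p = 0.0117). Actg1 shares nearly all of its coding sequence with other actins and has processed copies in the genome, so its level is uncertain. The levels of Actb, Cfl1, Pfn1, Myl6, Tagln2 and Tpm3 are uncertain too, since near-identical copies may share their reads.

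Calponins and transgelins split. Tagln (chr9:45929628-45936058), an actin-binding protein known as an early smooth muscle marker, read 184, 198 and 139.6 in total and 529, 819 and 522 in polysomal RNA. All 3 polysomal libraries were above all 3 total libraries, and Tagln rose by 1.82 ± 0.24 (adjusted p = 0.00406). The means were 174 ± 30.5 and 623 ± 169.6 (SD, n = 3 each). Cnn1, a smooth muscle calponin, was low throughout, at 3.49, 3.5 and 3.89 in total and 7.59, 11.4 and 11.2 in polysomal RNA, and rose by 1.24 ± 0.22 (adjusted p = 0.00937) on the scale of log2 of the value plus 1, which understates changes at such levels. Calponins 2 and 3, which are not confined to muscle, fell: Cnn2 by 0.63 ± 0.17 (adjusted p = 0.0349) and Cnn3 by 0.75 ± 0.17 (adjusted p = 0.0227). Transgelin 2 (Tagln2), widely expressed, was higher in every polysomal library, at 1494, 2857 and 1644 against 1100.3, 1086 and 1359, yet its difference of 0.70 ± 0.28 did not pass the test (adjusted p = 0.104). The other smooth muscle markers did not share one direction. Of the 4 listed outside the 40 genes, Actg2 rose (0.70) while Smtn (-0.84), Lmod1 (-0.80) and Synpo2 (-1.60) fell, and Myh11 and Myocd were not among the listed genes.

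Tropomyosins, which lie along filaments and gate myosin's access, stood between -0.14 (Tpm2) and 0.06 (Tpm1), and 0 of 4 passed limma's test (0 also at an unadjusted p under 0.05, and 0 in edgeR and DESeq2). Tpm1 read 1241, 1202 and 1109 in total and 1347, 959 and 1444 in polysomal RNA, overlapping groups (0.06 ± 0.21, adjusted p = 0.857). Of the turnover proteins, profilin 1 (Pfn1), which feeds monomers to growing filaments, read 1867, 2031 and 2226 in total and 2807, 8184 and 2583 in polysomal RNA. Its 3 polysomal values were the higher ones, but replicate 2 stood far above the others, and the difference of 0.94 ± 0.43 did not pass (adjusted p = 0.148). Cofilin 1 (Cfl1), which severs filaments, stood at 0.55 and the muscle cofilin Cfl2 at -0.22.

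All 10 adhesion adaptors and kinases had a fold change below 0, from -0.12 to -0.93, and 2 passed the test. With the length trend removed 1 of them, Parva, was above 0 (0.18). Tensin 1 (Tns1), which binds integrin tails and actin, went from 516, 504 and 529.5 to 272, 213 and 342 (fell by 0.93 ± 0.21, adjusted p = 0.0192). The scaffold paxillin (Pxn) went from 132, 134 and 168 to 75.8, 80.8 and 97.3 (fell by 0.77 ± 0.18, adjusted p = 0.0253). The integrin-linked kinase gene Ilk, its partners Lims1 and Parva, the kindlin Fermt2, zyxin (Zyx), Tns3, focal adhesion kinase (Ptk2) and the Cas scaffold Bcar1 stood at -0.59, -0.73, -0.30, -0.66, -0.53, -0.46, -0.39 and -0.12 in that order. Srf itself read 143, 145 and 133 in total and 121, 214 and 143 in polysomal RNA (0.14 ± 0.23, adjusted p = 0.662), and its coactivator Mkl1 read 122, 126 and 145 against 99.9, 116 and 133 (-0.18 ± 0.18, adjusted p = 0.482). The groups of both overlapped. The second coactivator, Mkl2, went from 43.8, 47.8 and 56.5 to 21.7, 16.4 and 27.3 and fell by 1.16 ± 0.23 (adjusted p = 0.0138). The 7 genes with a CArG box thus ran from -2.21 (Vcl) through -1.20 (Actg1), -0.66 (Fermt2), -0.63 (Cnn2), -0.12 (Myl9) and 0.14 (Srf) to 0.57 (Myl6).

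Leaving out any 1 of the wild-type total libraries left 1 gene higher (Tagln) and 6 lower. Leaving out polysomal replicate 2 gave 4 higher and 18 lower. Shares over all genes are not given for these fits, so a change in these genes cannot be told from one in all genes. Tagln, Tln1, Flna, Vcl, Flnc, Actn4 and Myh10 passed in each of the 14 alternatives run.

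**Figure D1:**
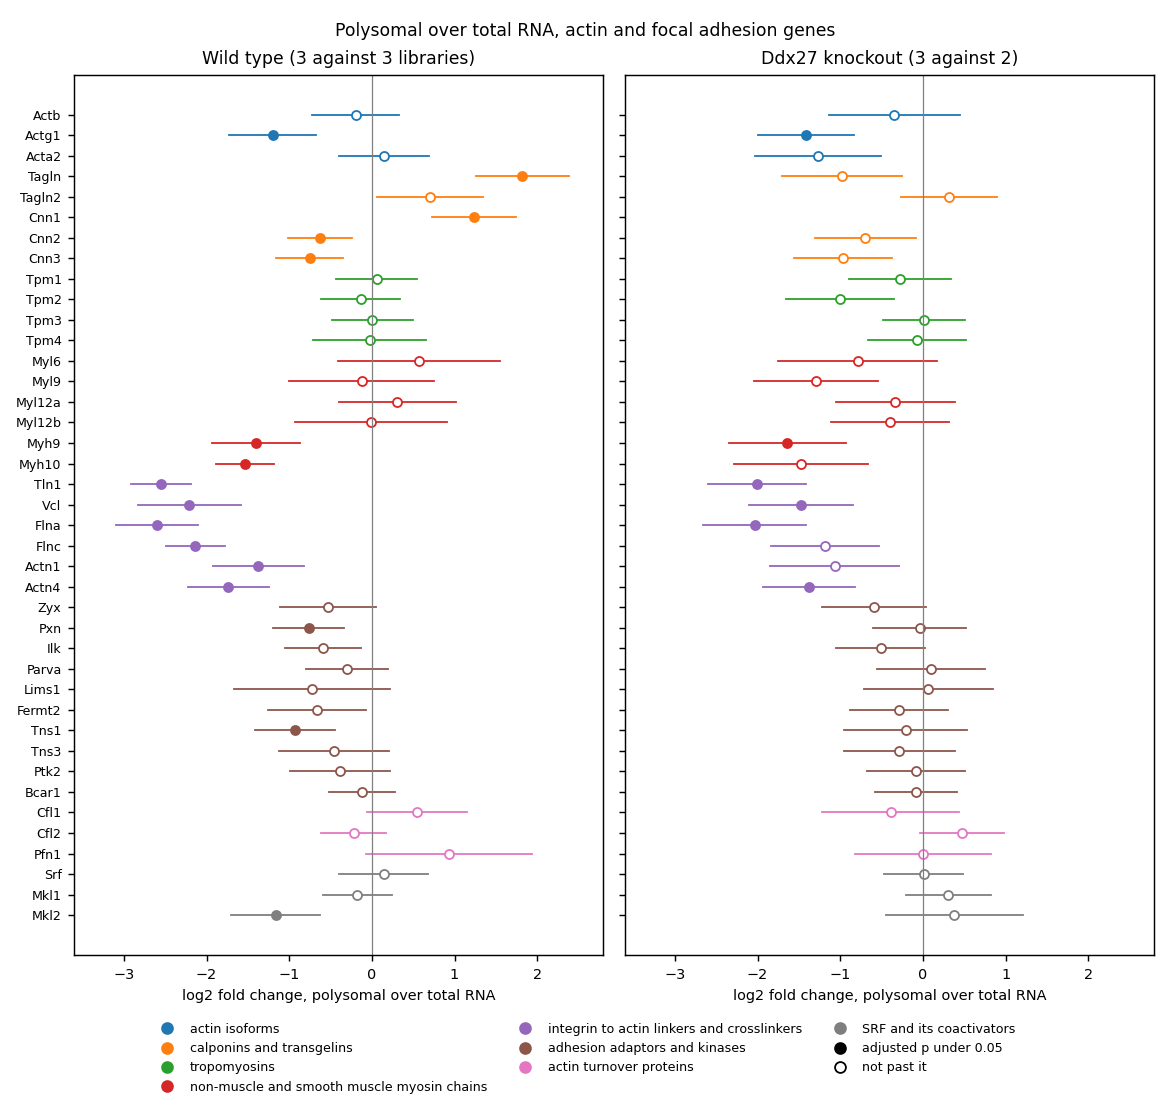
Polysomal over total RNA as a log2 fold change (x axis) for each gene (rows, coloured by role) in wild-type cells (left, 3 against 3 libraries) and Ddx27 knockout cells (right, 3 against 2). Lines are 95% intervals, and filled points passed an adjusted p of 0.05: the 6 linkers lay at or below -1.37 in the wild type, and Tagln stood at 1.82 on the left and -0.98 on the right.

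Gene length moved with these values in the wild type. A gene's length here is that in the deposited tables. Across the 40 genes the fold change correlated with log2 length at Pearson r = -0.67 and a Spearman correlation of -0.69, and across all 12380 genes at r = -0.43. These points share the same libraries, and the values are a description. Libraries differed: over all genes tested, the slope on log2 length against mean total RNA was -0.23, -0.53 and -0.14 in polysomal replicates 1 to 3. Genes under 3000 bases had a median of -0.02 (16 genes, 0.30 over all such genes). Those of 3000 to under 6000 had -0.60 (12 genes, -0.10 over all) and those of 6000 or more -1.05 (12 genes, -0.47 over all). The median of each class of the cytoskeletal genes thus lay below that of all genes of its length. Single genes, among them Tagln and Cnn1, lay above it. With each library's length trend removed, the 6 linkers still fell, to -2.14 (Flna), -2.09 (Tln1), -2.01 (Vcl), -1.66 (Flnc), -1.51 (Actn4) and -1.30 (Actn1), among 2 of the 40 genes that rose and 12 that fell (9.5% and 13.3% of all genes). Tagln and Cnn1 still rose, by 1.49 and 1.08. Myh9 (-0.84, adjusted p = 0.117), Pxn (-0.37, adjusted p = 0.186) and Tns1 (-0.46, adjusted p = 0.0558) no longer passed, and Ilk did (-0.70, adjusted p = 0.0404).

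**Figure D2:**
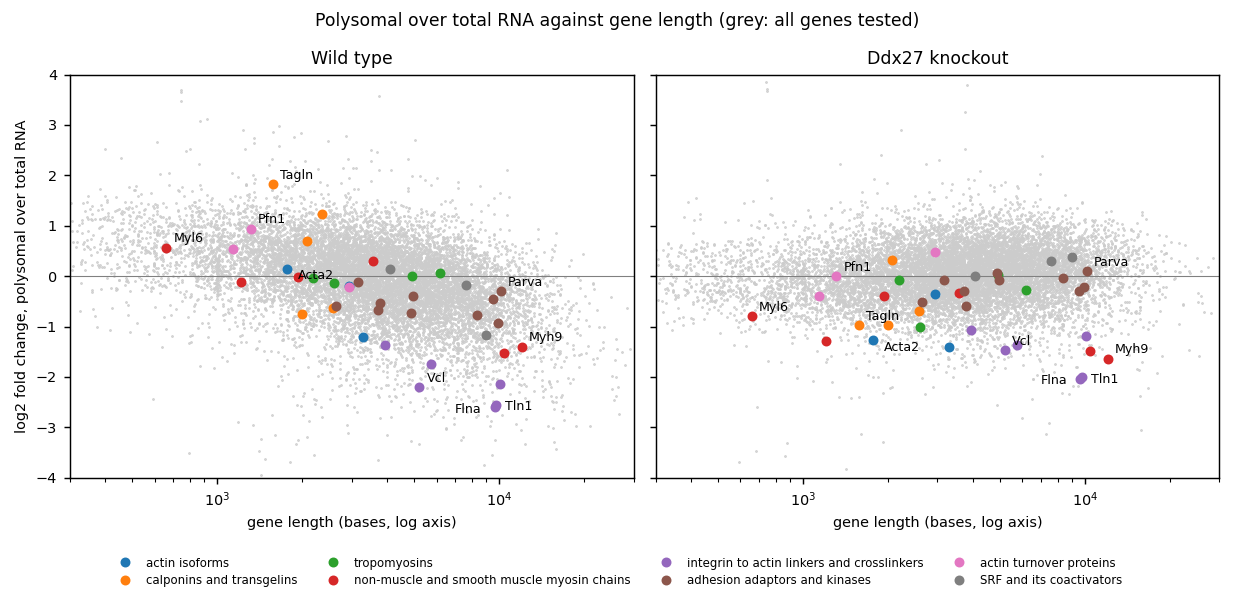
Polysomal over total RNA as a log2 fold change (y axis) against gene length in bases (x axis, log scale) for the cytoskeletal genes, coloured by role, over all genes tested in grey, in wild-type (left) and knockout cells (right). In the wild type the points slope down with length (Pearson r = -0.67 over 40 genes), with Flna, Tln1 and Vcl below the grey cloud's centre. In the knockout they do not (r = -0.10 over 39), where single libraries had length slopes of either sign.

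In Ddx27 knockout cells the same contrast was drawn between 3 polysomal and 2 total libraries. The linkers Flna, Tln1, Vcl and Actn4 were again scarcer in polysomal RNA, together with Myh9 and Actg1. Tagln, Acta2, Tpm2, Cnn3 and Myl9 were also lower in every polysomal than in every total library, without passing the test. Of 39 genes, 0 rose and 6 fell in limma, where 0.911% of the 12070 genes tested rose and 1.85% fell. At an unadjusted p under 0.05, 0 were higher and 15 lower (12.1% and 10.7% of all genes), and the counts past the threshold were 0 and 6 in edgeR (0.671% and 1.84% of all genes) and 0 and 14 in DESeq2 (4.45% and 6.22%). The median over the 39 was -0.39, against 0.04 over all genes. In 19 the polysomal libraries lay wholly below the total ones (18.3% of all genes) and in 3 wholly above (22.3%).

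Flna read 2786 and 2042 in the 2 knockout total libraries and 560.4, 626 and 560.3 in the polysomal ones, and fell by 2.03 ± 0.27 (SE, 3 libraries against 2, adjusted p = 0.0133). Tln1 went from 707 and 476 to 137, 164 and 131 (fell by 2.01 ± 0.26, adjusted p = 0.0128). In both genes the groups lay far apart although the first total library read higher than the second. Vcl went from 626 and 497 to 153, 247 and 211 (fell by 1.47 ± 0.28, adjusted p = 0.0323) and Actn4 from 685 and 575 to 230.4, 281 and 217 (fell by 1.38 ± 0.24, adjusted p = 0.029). The remaining linkers Flnc and Actn1 stood at -1.18 ± 0.29 and -1.07 ± 0.34 and did not pass (adjusted p = 0.0677 and 0.127), also with groups that did not overlap.

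Myh9 went from 2685 and 1696 to 573, 813 and 689, and fell by 1.64 ± 0.31 (adjusted p = 0.0341), and Actg1 from 3.92 and 4.17 to 0.953, 0.685 and 1.08, and fell by 1.41 ± 0.26 (adjusted p = 0.0295). At these levels the pseudocount of 1 compresses the Actg1 fold, which is -2.13 in the authors' deposited table of the knockout and -1.64 in that of the wild type. Myh10 stood at -1.48 ± 0.36 (adjusted p = 0.0659). Acta2 read 4526 and 5090.4 in total and 2032, 1567 and 2503 in polysomal RNA, groups that did not overlap, with a difference of -1.26 ± 0.34 that did not pass (adjusted p = 0.0833). Actb, by contrast, overlapped at 4463 and 5993 against 3687, 3886 and 4691 (-0.35 ± 0.35, adjusted p = 0.591).

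Tagln read 206 and 373 in total and 178, 111 and 140.0 in polysomal RNA, the polysomal libraries being the lower ones in the knockout (-0.98 ± 0.32, adjusted p = 0.128). The authors' deposited table gives Tagln a log2 fold change of -1.02 in the knockout at an FDR of 0.0478, and 1.84 in the wild type at an FDR of 1.52e-07. Myl9 read 102 and 167 against 70.4, 36.9 and 56.1 (-1.29 ± 0.33, adjusted p = 0.0779), again without overlap. Myl6 at 189.5 and 261 against 245, 92.6 and 93 overlapped (-0.79 ± 0.42, adjusted p = 0.305).

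Among tropomyosins, Tpm2 stood at -1.003 (adjusted p = 0.0974) and Tpm1, at 1290.3 and 1355 against 1146, 936 and 1205, at -0.28 ± 0.27 (adjusted p = 0.579), while Tpm3 and Tpm4 stood at 0.01 and -0.07. The adaptors lay between -0.59 (Zyx) and 0.10 (Parva), with 0 of 10 past the test in limma, edgeR or DESeq2 and 0 at an unadjusted p under 0.05 in limma. Pfn1, at 1879 and 2862 against 3143, 1864 and 2123, overlapped, with a 95% interval of -0.82 to 0.82 for the difference (adjusted p = 0.999). Srf read 113 and 119 against 121, 113 and 116 (0.01 ± 0.21, adjusted p = 0.985) and Mkl1 108 and 83.8 against 110.5, 117 and 127 (0.31 ± 0.23, adjusted p = 0.456). Neither passed, although Mkl1 was higher in every polysomal library.

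The knockout calls rest on few libraries, and the counts below for left-out libraries come without their share over all genes. None of the 38 genes still tested passed without polysomal library 3 or without either total library, Actg1 then missing the filter on low values; 5 fell without polysomal library 2 and 14 without polysomal library 1, and 14 fell and 0 rose with each library's length trend removed (6.61% and 5.48% of all genes). Fold change and length showed no common slope here (r = -0.10 over 39 genes, 0.08 over all genes). Single libraries did slope, in either direction. Over all genes tested, the slope on log2 length against mean knockout total RNA was -0.16, 0.17 and 0.11 in polysomal libraries 1 to 3. It was 0.11 and -0.11 in total libraries 1 and 2.

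The authors' own tables, which test each genotype separately, put 3 of the 40 genes higher and 13 lower in the wild type at an FDR of 0.05 (13.0% and 14.3% of all genes in that table), and 0 higher and 14 lower of 39 in the knockout (3.42% and 4.84%). In the authors' deposited table Pfn1 was the additional higher gene, at 1.15 (FDR 0.0226).

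The difference between the genotypes in polysomal over total RNA was tested directly, over all 11 libraries. Tagln alone among the 39 genes passed: its polysomal over total value was lower in the knockout (-2.84 ± 0.43 on the log2 scale, SE; 95% interval -3.79 to -1.89; adjusted p = 0.0358). Per library, Tagln stood 1.62, 2.25 and 1.60 above mean total RNA in wild-type polysomal replicates 1 to 3, and at -0.64, -1.31 and -0.98 in the knockout polysomal libraries, so all 3 of each genotype lay on their own side of 0. Of 39 genes 0 were higher and 1 lower in limma, where 0.201% and 0.0482% of the 12460 genes tested were. At an unadjusted p under 0.05, 4 were higher and 3 lower (11% and 9.71% of all genes), and the counts past the threshold were 0 and 1 in edgeR (0.177% and 0.0722% of all genes) and 2 and 2 in DESeq2 (3.93% and 3.71%).

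Acta2 had the next lowest difference, -1.46 ± 0.38 (95% interval -2.29 to -0.62, adjusted p = 0.0986), and did not pass. Myl6, Myl9, Pfn1, Cfl1 and Tpm2, all shorter than 3000 bases, lay between -1.40 and -0.91 and did not pass. Not every gene of that length shared this direction, since Cfl2 stood at 0.65. The 15 genes under 3000 bases had a median of -0.43 (-0.36 over all such genes). Mkl2, at 1.51 ± 0.44 (adjusted p = 0.123), was the highest. The 6 linkers lay between 0.27 and 0.91 with 0 past the test in limma, edgeR or DESeq2 and 1 higher at an unadjusted p under 0.05; the interval for Flna ran from -0.18 to 1.22 and that for Tln1 from -0.11 to 1.12. Over the 39 genes the difference correlated with log2 length at r = 0.72, and over all genes at r = 0.50. This is a description over shared libraries, and libraries of the same group differed in their length slopes. With the length trend removed Tagln stood at -2.50 (adjusted p = 0.0152) and Acta2 at -1.17 (adjusted p = 0.108), 0 of the 39 being higher and 1 lower (0.642% and 0.353% of all genes).

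Tagln's call was lost without any 1 wild-type total library, without wild-type polysomal replicate 1 or 3, without knockout total library 2 and without knockout polysomal library 2 or 3, its log2 value staying between -3.26 and -2.41 over the 18 alternatives (adjusted p 8.21e-07 to 0.242). The other smooth muscle markers, summed over the 4 of 6 that were listed outside the 40 genes, read 259 to 316 in wild-type total, 197 to 267 in wild-type polysomal, 84.5 to 93.6 in knockout total and 69.9 to 82.8 in knockout polysomal RNA, with Myh11 and Myocd unlisted. These sums are on the scale deposited for each genotype, and they hide opposite changes. With all libraries scaled together, Lmod1 was higher in knockout than in wild-type total RNA (1.92). Actg2 (-2.07), Synpo2 (-1.72) and Smtn (-1.37) were lower, all past the test. In the genotype difference of polysomal over total RNA, Actg2 and Lmod1 stood at -1.56 and -1.37 (adjusted p = 0.0703 and 0.0709) and Smtn and Synpo2 at 0.87 and 1.63. None of these differences passed the test, and the part of these markers in the Tagln result was not tested.

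**Figure D3:**
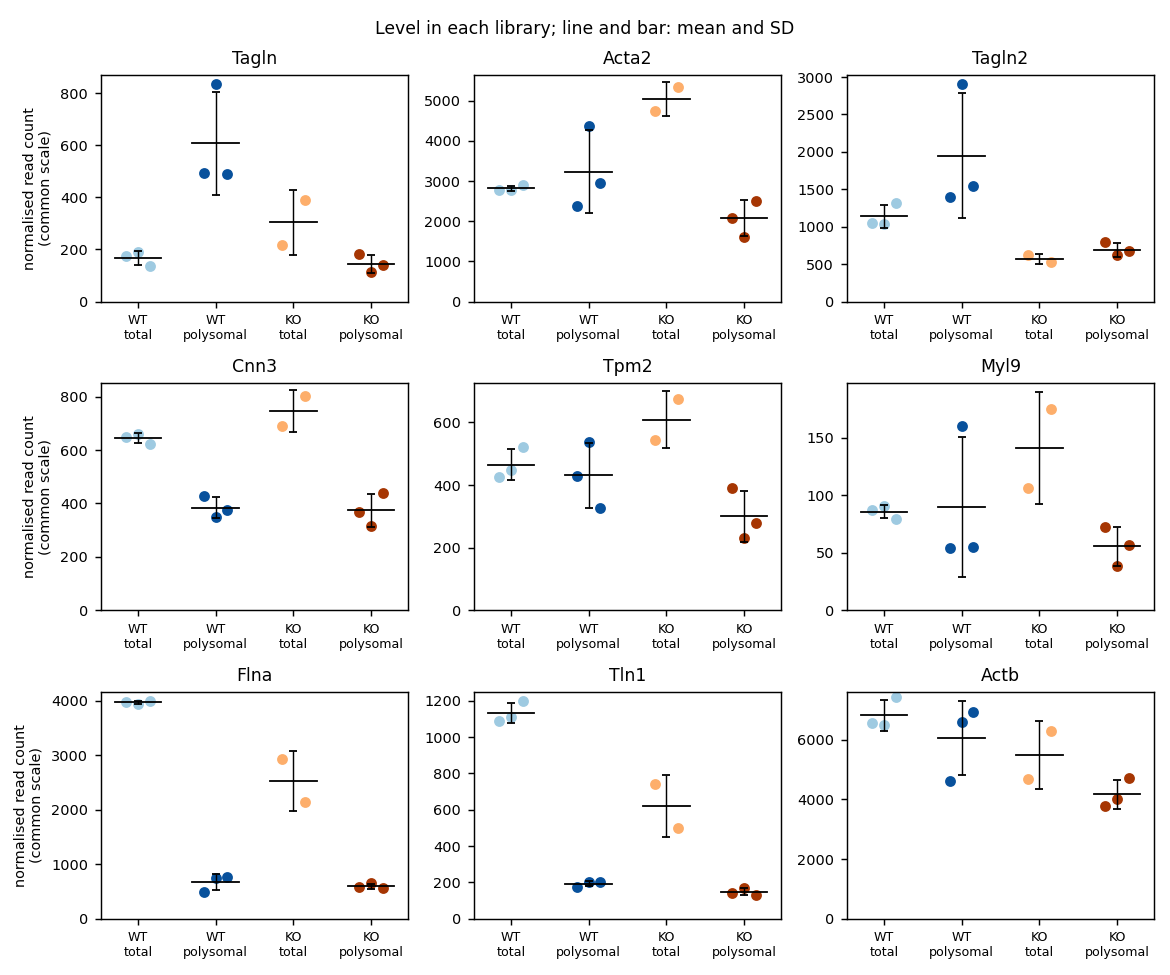
Normalised read count on 1 common scale (y axes, linear, from 0) of 9 genes in each of the 11 libraries, by genotype (WT wild type, KO Ddx27 knockout) and RNA fraction. Points are libraries and lines and bars the mean and SD: Tagln was highest in wild-type polysomal RNA (607 ± 198) and lowest in knockout polysomal RNA (146 ± 34.3), while Flna and Tln1 dropped from total to polysomal RNA in both genotypes.

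Levels in the knockout were then compared with the wild type within each fraction, after median-of-ratios scaling had brought all libraries to a common scale, since the authors scaled the tables of the genotypes separately. These comparisons share libraries with those above. In total RNA, transcripts of Flnc, Myh10, Pxn, Tns1 and Tln1 were scarcer in the knockout and none of the 39 genes was called higher. In limma 0 rose and 5 fell (4.71% and 5.79% of the 12460 genes tested), 3 were higher and 9 lower at an unadjusted p under 0.05 (14.5% and 14.9%), and past the threshold edgeR counted 0 and 4 (5.39% and 4.94% of all genes) and DESeq2 2 and 8 (10.1% and 9.7%). With the length trend removed 0 rose and 5 fell (5.71% and 6.09%). Knockout libraries lay wholly below the wild-type ones in 20 genes (33.2% of all genes) and wholly above in 10 (31.2%). Muscle markers were also lower in knockout total RNA: of 5 myoblast markers tested 4 fell (Myod1 -6.38, Des -1.73, Itga7 -1.17 and Cdh15 -1.03) and Myf5 rose (0.98), and of 8 differentiated muscle markers 4 fell (Myh3 -3.50, Actc1 -3.19, Ttn -2.38 and Myog -1.95). Their part in the change of the cytoskeletal genes was not tested.

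Flnc read 742, 752 and 783 on the common scale in wild-type total and 341 and 209 in knockout total RNA, and fell by 1.50 ± 0.23 (SE, 2 libraries against 3, adjusted p = 0.0025). Myh10 went from 211, 214 and 206 to 112 and 57.7 (fell by 1.37 ± 0.29, adjusted p = 0.0148). The first knockout library read higher than the second in both, and both lay below every wild-type library. Pxn went from 126, 129 and 162 to 70.1 and 52.2 (fell by 1.18 ± 0.22, adjusted p = 0.00655), Tns1 from 496, 484 and 513 to 328 and 176 (fell by 1.05 ± 0.29, adjusted p = 0.041) and Tln1 from 1090.1, 1109.5 and 1197 to 741 and 499.7 (fell by 0.89 ± 0.21, adjusted p = 0.0213). The other 4 linkers stood between -0.66 (Flna, 3966 ± 23.2 in wild type and 2532 ± 552 in the knockout) and -0.45 (Actn4), below all wild-type libraries but not past the test.

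On the other side, Acta2 read 2789, 2789 and 2893 in wild-type and 4747 and 5339 in knockout total RNA, without overlap, at 0.83 ± 0.28 (adjusted p = 0.0793). Tagln stood at 0.81 ± 0.32 (adjusted p = 0.124), and Myl6 was highest of all at 1.41 ± 0.52 (adjusted p = 0.0978), neither passing. Myl9, Pfn1, Tpm1 and Actb stood at 0.67, 0.31, 0.28 and -0.33, and Srf and Mkl1 at -0.15 and -0.33. The counts that follow, with 1 library left out, come without their share over all genes. Without knockout total library 2, 1 gene fell (Flnc), and without any 1 wild-type total library 2 fell, while without wild-type polysomal replicate 2, which shares in the spread, 3 rose and 8 fell.

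In polysomal RNA, knockout cells held less Tagln, Tagln2 and Myh10. In limma 0 of 39 genes rose and 3 fell (4.82% and 3.5% of 12460), 2 were higher and 9 lower at an unadjusted p under 0.05 (12.5% and 10.7%), and past the threshold edgeR counted 0 and 3 (4.67% and 3.27% of all genes) and DESeq2 1 and 4 (7.81% and 6.6%). Knockout libraries lay wholly below in 9 genes (11% of all genes) and wholly above in 1, the muscle cofilin Cfl2 (12.6% of all genes). Tagln read 494, 835 and 491 on the common scale in wild-type and 183, 115 and 140.4 in knockout polysomal RNA and fell by 2.03 ± 0.29 (SE, 3 against 3, adjusted p = 0.00158). Tagln2 went from 1396, 2913 and 1545 to 796, 617 and 670.0 (fell by 1.42 ± 0.27, adjusted p = 0.00798) and Myh10 from 74.8, 73.3 and 68.5 to 19.96, 37.99 and 27.37 (fell by 1.36 ± 0.26, adjusted p = 0.00942). None of these 3 overlapped between genotypes, and all 3 passed in each of the 18 alternatives run. Tagln2, unlike Tagln, was also lower in knockout total RNA, at 621 and 525 against 1056, 1043 and 1317 in the wild type. Those groups did not overlap, but the difference of -0.99 did not pass the test. The fall of Tagln2 was thus not confined to polysomal RNA. The same 4 myoblast markers fell in polysomal RNA too (Myod1 -6.26, Des -1.12, Itga7 -0.77 and Cdh15 -0.67), as did 1 of 8 differentiated muscle markers (Actc1, -1.45), and their part was not tested.

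No linker passed the test between genotypes in this fraction in limma, edgeR or DESeq2, and 1 was lower at an unadjusted p under 0.05 in limma. Flna read 495, 738 and 767 in wild-type and 575, 647 and 562 in knockout polysomal RNA, overlapping groups (-0.14 ± 0.21, adjusted p = 0.743), and the 6 genes ran from -0.59 to 0.13. Acta2, Actb and Tln1 stood at -0.62, -0.52 and -0.39, Myl6, Myl9, Pfn1 and Tpm1 at 0.02, -0.54, -0.67 and -0.09, and Srf and Mkl1 at -0.33 and 0.11, none past the test. Cfl2 was at 0.46 ± 0.15 (adjusted p = 0.0924). With the length trend removed 0 of the 39 genes rose and 6 fell (6.67% and 5.39% of all genes), Tpm3, Flnc and Pxn being added.

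**Figure D4:**
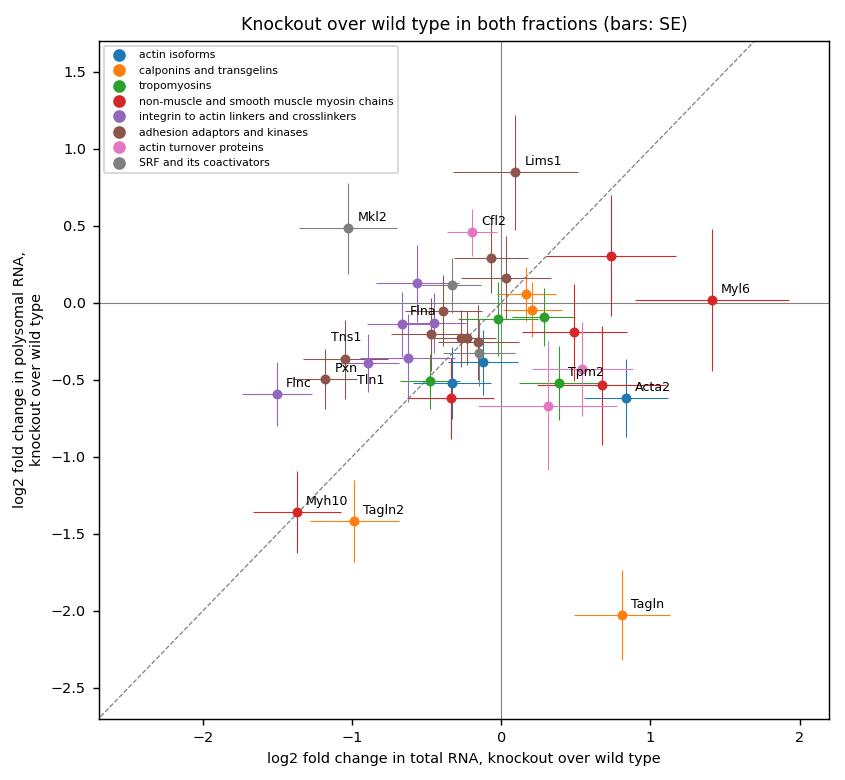
Log2 fold change of knockout over wild type in polysomal RNA (y axis) against that in total RNA (x axis) for 39 genes, coloured by role, with SE bars and a dashed line of equal change. Myh10 lies on the line (-1.37 and -1.36), and Tagln lies far below it (0.81 and -2.03).

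Per kilobase of gene length, Actb led in wild-type total RNA at 2411 normalised read counts, followed by Acta2 (1654), Pfn1 (1552) and Cfl1 (1416). Dividing by length does not remove the uncertainty, given above, in the levels of genes with near-identical copies. The ranks of Actb, Actg1, Cfl1, Pfn1, Myl6, Tagln2 and Tpm3 are therefore uncertain too. Tagln2, Zyx, Tpm4 and Flna followed at 569, 519, 465 and 427. Lowest were Mkl2 (5.47), Cnn1 (1.54) and Actg1 (1.50). In wild-type polysomal RNA Pfn1 led at 3441, with a spread over its libraries that took in the levels of Actb (2132) and Cfl1 (2091), and Flna was at 71.6. Acta2 led in knockout total RNA at 2713, and Pfn1 in knockout polysomal RNA at 1807.

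Other genes of the pathway, 119 outside the 40 and chosen by function, gave context in 8 lists, of which 7 are described. In the wild type 6 rose and 36 fell, where 8.89% and 13.8% of all genes did. The largest share of genes that fell was among bundlers, cortical linkers and LIM proteins, of which 13 of 21 fell and 1 rose, including the spectrin Sptbn1 (-2.96), dystonin (Dst, -2.54) and plectin (Plec, -2.45). Of 26 further adhesion plaque proteins 7 fell, including Lims2 (-1.99), and of 10 formins, which elongate filaments, 5 fell, led by Daam2 (-1.63). The Arp2/3 complex, which branches filaments, had 1 of 9 higher (Arpc5l, 0.81) and 0 lower. Of 10 WASP and WAVE regulators 2 fell (Cyfip1 -1.66, Wasf2 -0.88), and of 18 capping, severing and monomer-binding genes 4 fell (Tmod1 -2.16, gelsolin, Gsn, -1.59). Among 10 other SRF targets 4 rose, led by the immediate-early gene Egr1 (2.69), and 3 fell, led by skeletal alpha-actin (Acta1, -3.95) and cardiac alpha-actin (Actc1, -3.16). In total RNA the 8 differentiated muscle markers summed to 368 to 912 and in polysomal RNA to 26.7 to 34.7 in the wild type, and to 148 to 172 and 16.3 to 20.6 in the knockout, and the myoblast markers (6 of 6 listed in the wild type, 5 in the knockout) to 2921 to 4021 and 888 to 1042 in the wild type, and to 1032 to 1205 and 461 to 539 in the knockout. The fibroblast markers (5 of 6 listed in the wild type, 4 in the knockout) summed to 2107 to 2584 in total and 789.9 to 1326 in polysomal RNA of the wild type, and to 1409 to 2014 and 654 to 779 in the knockout. In both genotypes polysomal RNA had the lower value of all 3 sums, as for the linkers, and their part in the result was not tested.

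In the knockout 1 of 117 of these pathway genes rose and 8 fell in polysomal over total RNA, where 0.911% and 1.85% of all genes did. Egr1 rose (1.81), and Acta1 (-3.82), Plec (-1.59), plastin 3 (Pls3, -1.59), supervillin (Svil, -1.57), desmin (Des, -1.55) and Gsn (-1.55) were among those that fell, while 0 of 9 Arp2/3, 10 WASP and WAVE and 10 formin genes passed. The difference between genotypes passed in 1 of 119, the matricellular gene Ctgf (-1.61), which was lower (0.0482% of all genes). Between genotypes in total RNA 2 rose and 21 fell (4.71% and 5.79% of all genes), led by Actc1 (-3.19), the LIM protein gene Pdlim1 (-2.33) and Daam1 (-2.22). In polysomal RNA 3 rose and 10 fell (4.82% and 3.5% of all genes), and 6 of the 10 that fell were among the 10 other SRF targets, including Ctgf (-1.65), Fhl1 (-1.53) and Actc1 (-1.45). Acta1, Actc1 and Des belong both to these SRF targets and to the muscle markers above, so the lists are not separate.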

How the data were processed

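RNA-seq values of total and polysomal RNA were read from 1 deposited table per genotype. HTSeq, STAR, the mm10 build and edgeR are named, per the submitters' processing notes, with versions not given in the sources used here. The authors deposited normalised values per gene as a signal (read counts scaled per library), with gene lengths, and beside them their own log2 fold changes and p-values with FDR, each from 1 genotype. Dividing by a step found for each library gave integers within 0.001 reads for 100% of values, so reads could be recovered. No columns of other samples were present.

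The model assumed values rather than counts and was kept: limma 3.58.1 (R 4.3.3), with a mean-variance trend, on log2(value + 1), over genes reaching 1 in 3 or more libraries, with Benjamini-Hochberg adjustment over all genes tested and a threshold of 0.05. Genotypes were joined over the 12590 genes of both tables. edgeR 4.0.16 and DESeq2 1.42.0 on recovered reads were alternatives, beside another pseudocount, no filter, TMM and quantile scaling, removal of each library's length trend, a replicate block and leaving out each library. The fits were tested on simulated data. Wild-type titles number the replicates, but same-numbered samples did not deviate together (correlations 0.21, -0.22 and -0.07), and the block was not used. Knockout columns match samples by group alone.

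The genes, the 8 pathway lists and the marker lists (myoblast, differentiated muscle, smooth muscle, fibroblast, endothelium, leukocyte) were chosen with earlier results of these data known. Values in every library were given for members past the threshold (up to 12 per contrast) and always for Actb, Tln1, Flna, Acta2, Tagln, Tpm1, Myl6, Myl9, Pfn1, Srf and Mkl1, and up to 3 genes were named per pathway list and contrast, largest first. Some results of 2 pathway lists are not reported here. Other genes were named after their values were seen. Promoter sequences and gene coordinates are from RefSeq, GRCm38.p6.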

Additional observations from a re-analysis of the deposited data

Results flagged for a closer look

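Tagln differed between the genotypes in the same contrast, polysomal over total RNA, by the interaction term of the model over all 11 libraries. The log2 difference, knockout minus wild type, was -2.84 (SE 0.43, limma adjusted p = 0.0358). The call was lost on leaving out any of several single libraries, as given above. The knockout contrast alone did not pass (-0.98, limma adjusted p = 0.128). Polysomal RNA held more Tagln than total RNA in 3 of 3 wild-type polysomal libraries and less in 3 of 3 knockout ones.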

How the results depend on the processing

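No gene past the test changed sign under the alternatives run, though medians did. With DESeq2 on recovered reads, 4 genes were higher in wild-type polysomal RNA in place of 2, and 14 lower in the knockout in place of 6. For the difference between genotypes DESeq2 gave 2 higher and 2 lower, between genotypes in total RNA 2 higher and 8 lower, and in polysomal RNA 1 higher. Quantile scaling gave 3 lower in the knockout and 1 higher between genotypes in polysomal RNA. With the length trend removed, 14 were lower in the knockout and 6 between genotypes in polysomal RNA. Leaving out 1 library at a time gave 1 to 4 higher and 6 to 18 lower in the wild type, 0 higher and 0 to 14 lower in the knockout (Actg1 untested where 0), 0 to 1 higher and 0 to 1 lower for the difference, 0 to 3 higher and 1 to 8 lower between genotypes in total RNA, and 0 to 1 higher and 3 to 4 lower in polysomal RNA. Where this left 1 library in a group, that library was assumed to vary like the others. Shares over all genes are not given for the fits that left out 1 library. Nor are they given for the quantile counts above or for the genes lower with the replicate block. A change in these genes thus cannot be told there from one in all genes. The cause of these shifts was not tested. The replicate block gave 2 higher and 12 lower in the wild type, Cnn2 and Cnn3 no longer passing. Whether equal numbers pair the samples is not known from the labels. No paired analysis was possible because the knockout columns carry no sample numbers, in the knockout contrast and in those between genotypes. Over all genes, DESeq2 called 2154 higher and 2215 lower in the wild type where limma called 1101 and 1705, and the replicate block 703 higher. In the knockout, DESeq2 called 537 and 751 and the fit without the length trend 662 and 798, against 110 and 223. For the difference DESeq2 called 490 and 462, the fit without the length trend 80 and 44 and quantile scaling 13 and 1, against 25 and 6. Between genotypes DESeq2 called 1256 and 1208 in total RNA against 587 and 721, and 973 and 822 in polysomal RNA against 601 and 436, where the fit without the length trend called 672 lower. With quantile scaling the median genotype difference of the 39 genes turned from -0.03 to 0.23, and the median of the 4 tropomyosins in knockout polysomal over total RNA from -0.18 to 0.16, among other medians of tropomyosins and turnover genes.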
